A study of Mus musculus with 4 samples.

Results

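Iron uptake, storage, export and ceruloplasmin genes were followed in Hepa1-6 cells, a mouse hepatoma line, after knockdown of the chromatin remodeler Chd1. The 10 genes were taken by name, out of 23521 genes in the table: Trf, Tfrc, Slc11a2, Fth1, Ftl1, Slc40a1, Cp, Hamp, Aco1 and Ireb2. All 10 were found, and 9 had a mean of at least 1 RPKM (read density over the transcript, normalised to library size) and were tested. The study sequenced poly(A) RNA of 2 Control libraries, from cells given a lentivirus with a scrambled shRNA, and 2 Chd1KD libraries, from cells given one with an shRNA against Chd1. The cells of both groups were wild-type Hepa1-6 before transduction, grew in DMEM with serum, and spent 3 weeks in 4 μg/ml puromycin. Neither separate transductions for each library nor the use of a clone or a pool is stated in the sources used here. The p-values therefore cover only library-to-library spread, which may be technical.

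Hepatocytes secrete transferrin, which carries iron in plasma, and ceruloplasmin, a copper-carrying ferroxidase that helps load iron onto it. Cells take up iron-loaded transferrin through the transferrin receptor, move the iron out of the endosome through the transporter Slc11a2 (DMT1), store it in ferritin and release it through ferroportin (Slc40a1), which the liver hormone hepcidin (Hamp) removes from the cell surface. Inside the cell the iron regulatory proteins Aco1 (IRP1) and Ireb2 (IRP2) bind a hairpin, the iron-responsive element (IRE), when iron is low. Binding in the 5' UTR blocks translation, and binding in the 3' UTR of Tfrc protects the mRNA from decay.

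The hairpins are shown because they divide the genes by how iron is known to act on their mRNA. A search of the RefSeq-matched GENCODE M21 transcripts (GRCm38, the assembly behind mm10) took a C, 5 bases, the loop CAGTG followed by A, C or T, and 5 bases that pair with the first 5 (G to T pairs allowed). Only matches lying within an exon were kept for the genes shown. Each sequence below is the transcript strand, 5' to 3', with the 6 loop bases in capitals. Fth1 (chr19:9982732-9982760, plus strand), Ftl1 (chr7:45459779-45459807, minus strand) and Slc40a1 (chr1:45925465-45925493, minus strand) each held 1 match in the 5' UTR.
Fth1: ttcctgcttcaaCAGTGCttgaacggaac
Ftl1: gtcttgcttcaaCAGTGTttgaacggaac
Slc40a1: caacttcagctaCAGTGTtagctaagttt

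Tfrc held 4 matches in its 3' UTR, all on the plus strand of chromosome 16 and all within the region from 32631219 to 32631738. Slc11a2 held 1 near-match, with 4 of the 5 stem pairs, in the 3' UTR of transcript NM_001146161 (chr15:100395153-100395181, minus strand). The other Slc11a2 transcript in the table, NM_008732, held none.
Tfrc at 32631219: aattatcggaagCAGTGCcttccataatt
Tfrc at 32631598: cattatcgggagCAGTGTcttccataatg
Tfrc at 32631663: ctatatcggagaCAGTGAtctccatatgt
Tfrc at 32631710: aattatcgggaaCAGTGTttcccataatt
Slc11a2 NM_001146161: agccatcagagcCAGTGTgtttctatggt

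Among 20347 protein-coding genes, whose UTRs differ in length, a full match stood in the 5' UTR of 15 genes (0.0737%) and in the 3' UTR of 81 (0.398%). Unlike the matches shown, these counts include any that cross a splice junction. No match was found in Trf, Cp, Hamp, Aco1 or Ireb2, which says only that these letters do not lie within an exon of the transcripts searched. A match is a description of the sequence and not a measured binding site.

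Summed RPKM ranged from 459381 to 484490, and 10161 to 10209 genes reached 1 RPKM in a library. Across the 10209 tested genes, log2(RPKM + 1) gave r = 0.9922 within Control and r = 0.9948 within Chd1KD, while Control replicate 2 and Chd1KD replicate 2 correlated at r = 0.994, above the Control pair. Values without each library are therefore given below where they matter. Chd1 itself registered 21.43 and 22.49 RPKM in Control against 10.36 and 11.31 RPKM in Chd1KD, or 0.49 of Control (limma, adjusted p = 0.012).

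As to the cell type, the hepatocyte regulator Hnf4a averaged 43.4 RPKM over the 4 libraries, the fetal liver protein Afp 45.8 RPKM and albumin (Alb) 42.4 RPKM. Ttr and Serpina1a were listed at 0 throughout, and Apoa1 and Tat had means under 1 RPKM. A listed 0 need not mean absence in these tables. All 7 matched macrophage markers, all 8 erythroid, all 6 endothelial and all 7 fibroblast and stellate markers had means under 1 RPKM. The summed macrophage markers ranged from 0.326 to 0.580 RPKM in Control and from 0.342 to 0.389 RPKM in Chd1KD, all but a trace of it from Csf1r. Summed erythroid markers lay at 0.215 and 0.261 RPKM in Control and at 0.0695 and 0.104 RPKM in Chd1KD. Endothelial sums stayed at or below 0.0917 RPKM and fibroblast and stellate sums at or below 0.487 RPKM in every library.

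None of the 9 tested genes passed the test over all genes (limma, adjusted p under 0.05), where 47 of the 10209 tested genes did, or 0.460%. At an unadjusted p under 0.05 (limma) there were 5 of the 9, with 18.5% of all tested genes at that level. Of these 5, Slc40a1, Tfrc and Ireb2 were higher in Chd1KD, a direction that held 7.24% of all tested genes, and Cp and Trf were lower, a direction that held 11.3%. The groups did not overlap for 6 of the 9 genes, where they did not overlap for 51.8% of all tested genes. The median log2 fold change of the 9 was 0.02, beside -0.02 over all tested genes. Because the members were chosen with earlier results of these data known, these shares are descriptions and do not test the members as a set.

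**Figure D1:**
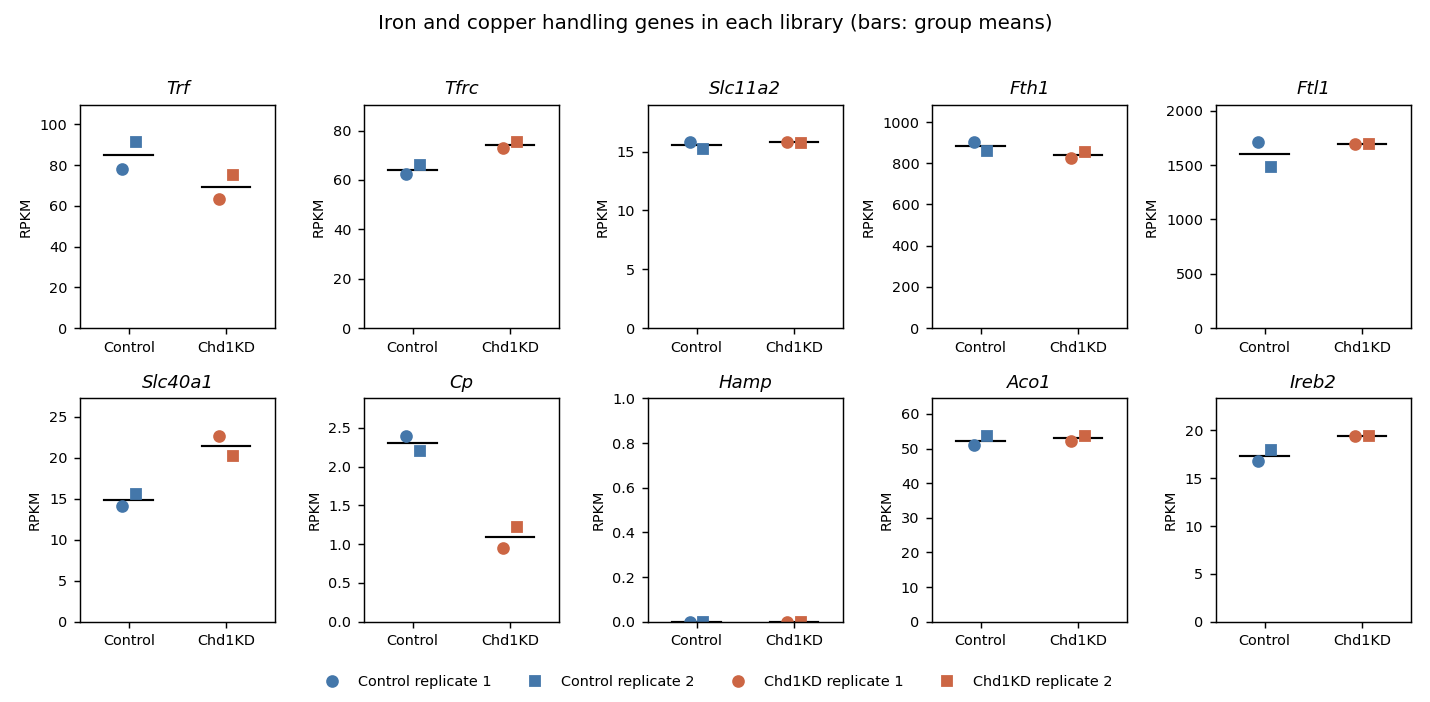
RPKM of the 10 genes in each of the 4 libraries, 1 panel per gene, each axis starting at 0; circles are replicate 1, squares are replicate 2, and black bars are group means. Cp (0.9575 and 1.219 RPKM in Chd1KD) lies below both Control libraries, Slc40a1 (22.70 and 20.17 RPKM) lies above them, and Hamp is at 0 in all 4.

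By level in RPKM, which is scaled to length, the ferritin chains stood far above the rest. Reads shared with gene copies or overlapping genes can shift such levels, so comparisons between genes are approximate. Ftl1 was the most abundant of the 10, at a mean over the 4 libraries of 1646 RPKM and rank 26 of all genes, and Fth1 followed at 861 RPKM and rank 84. Trf averaged 76.9 RPKM, Tfrc 69.2 and Aco1 52.7. Trf stood above Tfrc in both Control libraries, and in Chd1KD the 2 did not differ beyond the spread of Trf. Ireb2, Slc40a1 and Slc11a2 averaged 18.4, 18.2 and 15.7 RPKM. Slc40a1 was the lowest of these 3 in Control replicate 1 and the highest in both Chd1KD libraries, and in Control it did not differ from Slc11a2 beyond their spread. Cp was low at 1.70 RPKM, rank 9627 of all genes, and Hamp was listed at 0.

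Ceruloplasmin (Cp) had the largest fold change of the 9. The gene lies on chromosome 3 from 19956933 to 20009750 (GRCm38.p6). It registered 2.401 and 2.208 RPKM in Control against 0.9575 and 1.219 RPKM in Chd1KD. Both Chd1KD libraries were lower than both Control libraries. Means of 2.30 ± 0.14 RPKM in Control and 1.09 ± 0.18 RPKM in Chd1KD (SD, n = 2 each) put Chd1KD at 0.47 of Control. On the log2(RPKM + 1) scale the difference was -0.66 ± 0.11 (SE; limma, adjusted p = 0.070), so Cp did not pass. The value was -0.75 without Chd1KD replicate 2, which passed (limma, adjusted p = 0.033), and between -0.71 and -0.57 without any 1 of the other libraries, which did not.

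Most of the Cp signal in each library came from transcript NM_007752, at 2.143 and 1.884 RPKM in Control against 0.7666 and 0.9433 RPKM in Chd1KD. Chd1KD stood at 0.42 of Control for this transcript (limma on transcripts, adjusted p = 0.22). As both Chd1KD libraries were under 1 RPKM, the transcript met the filter on mean RPKM only through its Control values. The other 2 Cp transcripts were at or below 0.2655 RPKM in every library and were not tested, and their groups overlapped. Cp overlaps Hps3, a gene of lysosome-related organelles on the opposite strand. No source used here says whether reads were assigned by strand, so where the 2 genes overlap their reads cannot be told apart. Hps3 registered 5.223 and 4.591 RPKM in Control against 3.827 and 4.056 RPKM in Chd1KD, or 0.80 of Control (limma, adjusted p = 0.20). Its part in the Cp value was not tested.

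Transferrin (Trf), on chromosome 9 from 103208876 to 103230286, registered 78.05 and 91.34 RPKM in Control against 63.36 and 74.93 RPKM in Chd1KD. The groups did not overlap, but Chd1KD replicate 2 lay close to Control replicate 1, and replicate 2 was the higher library in both groups. Means of 84.7 ± 9.4 RPKM in Control and 69.1 ± 8.2 RPKM in Chd1KD (SD, n = 2 each) put Chd1KD at 0.82 of Control, a log2 difference of -0.29 ± 0.10 (SE; limma, adjusted p = 0.21). The difference was -0.17 without Chd1KD replicate 1 and -0.18 without Control replicate 2. It was -0.41 without Chd1KD replicate 2 and -0.40 without Control replicate 1. Trf overlaps the gene model Gm20425 on its own strand, whose reads cannot be told apart from its own.

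Of the 10 hepatocyte markers, 6 were tested and none passed (limma), with 3 lower and 1 higher at an unadjusted p under 0.05. That was 66.7% of the 6, where 18.5% of all tested genes were at that level, 11.3% lower and 7.24% higher. Their summed level was 128 and 184 RPKM in Control against 161 and 183 RPKM in Chd1KD. Hnf4a registered 46.36 and 50.91 RPKM in Control against 35.48 and 40.66 RPKM in Chd1KD (limma, adjusted p = 0.12). Apob, the core apolipoprotein of VLDL particles, had a ratio of 0.72, and Afp had a ratio of 1.63 (limma, adjusted p = 0.12 and 0.077). Albumin ranged from 18.61 to 55.62 RPKM between the Control libraries alone. The part of a general shift in hepatocyte genes in the Cp and Trf values was not tested. In RNA of whole cultures, fewer cells that express a gene and less RNA per cell cannot be told apart.

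Among the 5 tested genes nearest to Cp in profile, by Euclidean distance of centred log2(RPKM + 1) over the 4 libraries, were Cenpv, Timeless, Mgst1 and Nup210, at distances from 0.031 to 0.142. They were chosen for this likeness, and their ratios of Chd1KD to Control ran from 0.57 to 0.63. Cp itself had a ratio of 0.47, outside that range. The likeness holds on the scale with 1 RPKM added, which shrinks the change of a gene as low as Cp. With 0.1 RPKM added instead, the log2 fold change of Cp was -1.02 rather than -0.66. None is on the iron or copper lists.

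The transferrin receptor (Tfrc), on chromosome 16 from 32608896 to 32632794, registered 62.46 and 65.89 RPKM in Control against 73.13 and 75.42 RPKM in Chd1KD. Both Chd1KD libraries were above both Control libraries. Chd1KD stood at 1.16 times Control, a log2 difference of 0.21 ± 0.06 (SE; limma, adjusted p = 0.15). It ranged from 0.17 to 0.25 when 1 library was left out, and passed in none of these fits.

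Slc11a2, on chromosome 15 from 100387898 to 100424209, hardly differed as a gene, at 15.79 and 15.27 RPKM in Control against 15.83 and 15.77 RPKM in Chd1KD (ratio 1.02, limma, adjusted p = 0.87). Its 2 transcripts pointed in opposite directions. NM_001146161, the one with the near-match to the IRE in its 3' UTR, registered 6.103 and 5.933 RPKM in Control against 7.066 and 6.621 RPKM in Chd1KD. NM_008732 registered 9.683 and 9.332 RPKM in Control against 8.768 and 9.153 RPKM in Chd1KD.

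The groups overlapped for neither transcript, and neither passed (limma on transcripts, log2 fold changes 0.16 and -0.08, adjusted p = 0.42 and 0.64). Groups also did not overlap for 51.8% of all tested genes, and no such share was taken over transcripts. Within a library, the ratio of NM_001146161 to NM_008732 was 0.630 and 0.636 in Control and 0.806 and 0.723 in Chd1KD. This ratio, looked at after the transcript values had been seen, does not depend on how the libraries are scaled. On the log2 scale it was higher by 0.27 in Chd1KD, with SDs of 0.01 in Control and 0.11 in Chd1KD. With 2 libraries on each side an exact two-sided permutation test cannot reach a p under 0.33, so no p is given. The transcript values rest on how Cufflinks divided shared reads. Of the 14 transcript rows of the 10 genes, 10 were tested and none passed (limma on transcripts), as 0% of all 11965 tested rows did. At an unadjusted p under 0.05 there were 4 of the 10, the rows of Cp, Slc40a1, Tfrc and Trf, with 14.3% of all tested rows at that level. The Cp row among them met the filter only through its Control values.

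**Figure D2:**
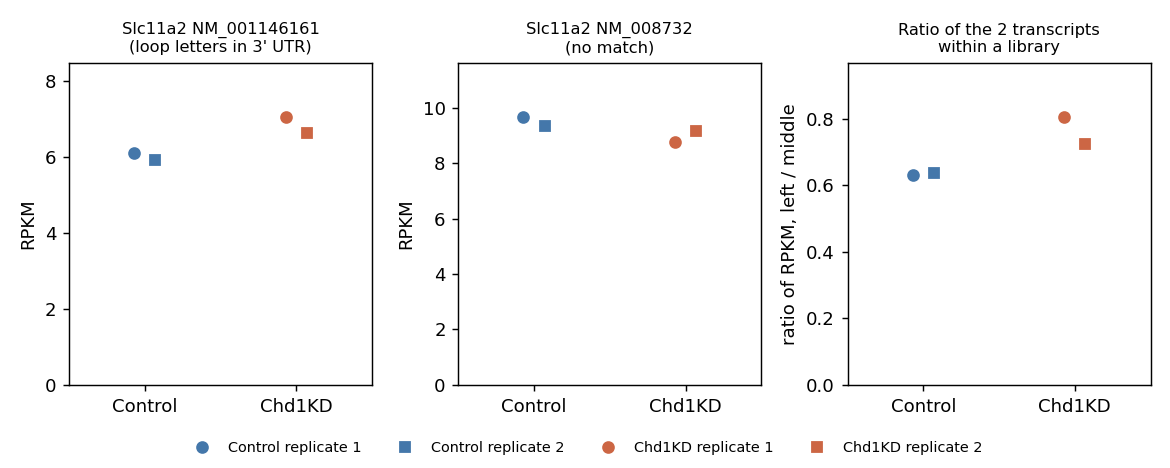
RPKM of the 2 Slc11a2 transcripts and their ratio within each library, all axes starting at 0; circles are replicate 1 and squares replicate 2. The transcript with the 3' UTR near-match is higher in both Chd1KD libraries, the other is lower, and the ratio is 0.630 and 0.636 in Control and 0.806 and 0.723 in Chd1KD.

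The ferritin chains, heavy (Fth1, with the ferroxidase site) and light (Ftl1), showed no difference that held beyond the spread. Fth1, on chromosome 19 from 9980600 to 9985111, registered 903.4 and 861.1 RPKM in Control against 827.7 and 853.8 RPKM in Chd1KD. Control replicate 2 and Chd1KD replicate 2 nearly met. Chd1KD stood at 0.95 of Control (log2 difference -0.07 ± 0.06, SE; limma, adjusted p = 0.58), and the sign turned under quantile normalization (0.04). Ftl1, on chromosome 7 from 45457944 to 45459886, registered 1714 and 1485 RPKM in Control against 1697 and 1691 RPKM in Chd1KD, so that both Chd1KD libraries lay between the Control libraries. Chd1KD stood at 1.06 times Control (log2 difference 0.09 ± 0.08, SE; limma, adjusted p = 0.61), and the sign turned without Control replicate 2 (-0.02).

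Within a library, Fth1 stood to Ftl1 at 0.527 and 0.580 in Control and at 0.488 and 0.505 in Chd1KD. Ferritin genes have many processed copies in the mouse genome, so reads shared with such copies make these levels uncertain. The ferritin relatives Ftmt and Fthl17a to Fthl17f were listed at 0 in every library. Tfrc stood to Fth1 at 0.0691 and 0.0765 in Control and at 0.0884 and 0.0883 in Chd1KD, so the receptor was higher against the heavy chain in both knockdown libraries. Neither gene passed, and how often such ratios separate the groups over other gene pairs was not taken.

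Ferroportin (Slc40a1), the only known exporter of cellular iron, had the smallest p of the 9. It lies on chromosome 1 from 45908070 to 45926532 and registered 14.13 and 15.61 RPKM in Control against 22.70 and 20.17 RPKM in Chd1KD. Both Chd1KD libraries were above both Control libraries. Means of 14.9 ± 1.0 RPKM in Control and 21.4 ± 1.8 RPKM in Chd1KD (SD, n = 2 each) put Chd1KD at 1.44 times Control. The log2 difference was 0.50 ± 0.08 (SE; limma, adjusted p = 0.067), so Slc40a1 did not pass. By p it ranked 88 of all tested genes and Cp ranked 93. It passed without Control replicate 2 (0.57, limma, adjusted p = 0.030) and without Chd1KD replicate 2 (0.58, adjusted p = 0.021), and not without Control replicate 1 (0.43, adjusted p = 0.065) or Chd1KD replicate 1 (0.42, adjusted p = 0.14).

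Hamp, which encodes hepcidin and lies on chromosome 7 from 30942368 to 30944029, was listed at 0 in all 4 libraries, as was Hamp2, its close relative. The ferroxidases Heph and Hephl1, relatives of ceruloplasmin, were also listed at 0 throughout. No fold is given for them.

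The mRNAs of the iron regulatory proteins differed in level. Aco1, on chromosome 4 from 40143265 to 40199009, registered 51.11 and 53.47 RPKM in Control against 52.31 and 53.73 RPKM in Chd1KD. The groups overlapped, and the ratio was 1.01 (limma, adjusted p = 0.89). Ireb2, on chromosome 9 from 54862658 to 54912534, registered 16.77 and 17.91 RPKM in Control against 19.46 RPKM in both Chd1KD libraries. Both Chd1KD libraries were above Control, at 1.12 times its mean, a log2 difference of 0.16 ± 0.06 (SE; limma, adjusted p = 0.25). Within a library Ireb2 stood to Aco1 at 0.328 and 0.335 in Control and at 0.372 and 0.362 in Chd1KD. This ratio is a description, and neither gene passed. Fbxl5, the iron-sensing ubiquitin ligase subunit that targets Ireb2 for degradation, had 13.5 and 14.2 RPKM as group means (limma, adjusted p = 0.63).

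**Figure D3:**
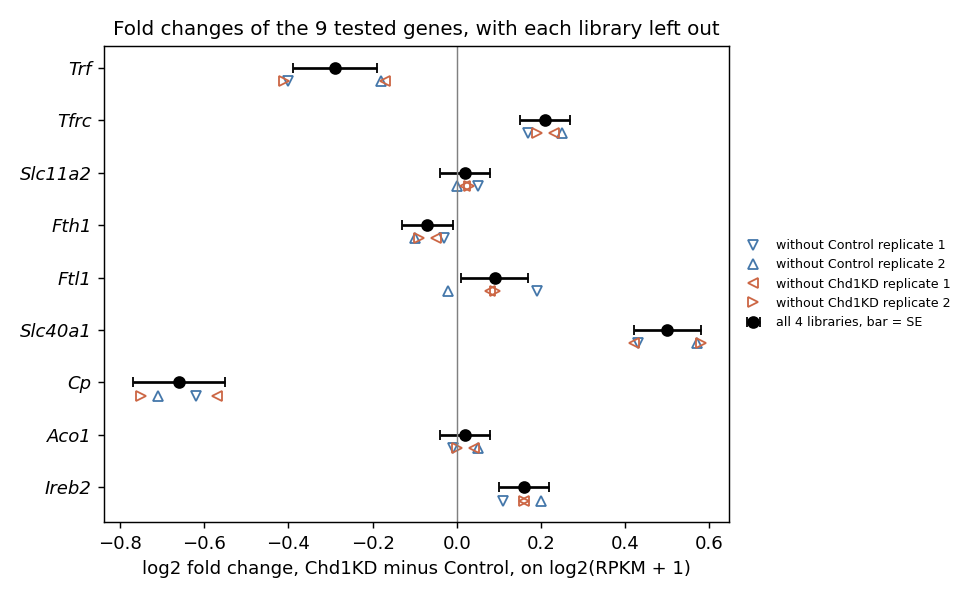
Log2 fold changes (Chd1KD minus Control, on log2(RPKM + 1)) of the 9 tested genes; black points with bars are the fit over all 4 libraries with its SE, and open triangles are fits without 1 library. Cp and Trf stay below 0 and Slc40a1, Tfrc and Ireb2 above 0 in all 4 such fits, while Ftl1 and Aco1 change sign in 1 of them.

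The wider iron and copper pathway was read from 7 lists. Together they held 115 genes beside the 10, of which 92 were tested. None passed over all genes (limma), and 17 of the 92 reached an unadjusted p under 0.05, of which 5 were higher and 12 lower in Chd1KD. That was 18.5% of the 92, the share found over all tested genes. Their median log2 fold change was -0.02. The genes named from each list include those among the 3 most abundant and the 2 with the smallest p, so the latter were picked for their difference. Others were named for their role or after their values were seen.

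Among other mRNAs known for an IRE, 4 of 5 were tested and none passed. An unadjusted p under 0.05 (limma) was reached by 1 gene, or 25.0%, beside 18.5% of all tested genes. That gene was Epas1, which encodes the hypoxia factor HIF-2 alpha, at 2.792 and 4.012 RPKM in Control against 5.011 and 4.725 RPKM in Chd1KD (ratio 1.43, limma, adjusted p = 0.18). Cdc42bpa and Cdc14a had ratios of 1.01 and 1.07, and Alas2, the erythroid heme synthesis enzyme, had a mean under 1 RPKM.

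Of 14 genes of iron entry and reduction, 6 were tested and none passed (limma). An unadjusted p under 0.05 (limma) was reached by 1, lower, or 16.7%, beside 18.5% of all tested genes. The most abundant were Steap1, of the STEAP metalloreductase family (11.1 and 12.1 RPKM), and the metal importer Slc39a14 (9.72 and 9.81 RPKM). Mcoln1, an endolysosomal channel that releases iron, registered 8.246 and 8.139 RPKM in Control against 7.120 and 6.935 RPKM in Chd1KD (limma, adjusted p = 0.20). Steap3, an endosomal ferrireductase of the transferrin cycle, had a ratio of 0.79 with overlapping groups (limma, adjusted p = 0.32). Tfr2, the iron-sensing transferrin receptor of hepatocytes, was listed at 0 in 3 libraries and at 0.00655 RPKM in Control replicate 1, and Hfe averaged 2.53 and 2.23 RPKM.

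Of 12 genes of storage and iron chaperones, 7 were tested and none passed (limma). Beside 18.5% of all tested genes at an unadjusted p under 0.05 (limma), this list had 28.6%, or 2 genes, both lower. These were the cytosolic iron chaperones Pcbp1, at 260.0 and 249.5 RPKM in Control against 227.4 and 233.2 RPKM in Chd1KD, and Pcbp2, at 158.1 and 154.1 RPKM in Control against 142.3 RPKM in both Chd1KD libraries (limma, adjusted p = 0.25 and 0.26). Bola2, a partner of the glutaredoxin Glrx3 in iron-sulfur trafficking, averaged 182 and 179 RPKM. Ncoa4, the receptor that takes ferritin to the lysosome, averaged 19.5 and 19.1 RPKM.

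Of 22 genes in the control of hepcidin, 17 were tested and none passed (limma). An unadjusted p under 0.05 (limma) was reached by 2 higher and 3 lower, or 29.4%, beside 18.5% of all tested genes. Stat3, which carries the IL-6 signal to the hepcidin promoter, registered 13.19 and 13.84 RPKM in Control against 18.04 and 17.44 RPKM in Chd1KD, or 1.31 times Control (log2 difference 0.37 ± 0.06, SE; limma, adjusted p = 0.076). Id1, a target of BMP signalling, registered 131.9 and 112.2 RPKM in Control against 100.3 and 102.5 RPKM in Chd1KD, or 0.83 of Control. Atoh8, a transcription factor linked to hepcidin, had a ratio of 0.77 (limma, adjusted p = 0.17). The protease Furin and the BMP mediator Smad4 averaged 49.9 and 48.9 RPKM and 32.6 and 34.7 RPKM. Hjv, Tmprss6, Bmp2 and Bmp6 were listed at 0 in all 4 libraries.

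All 29 genes of mitochondrial iron and iron-sulfur cluster assembly were tested, and none passed (limma). With 1 higher and 3 lower, 13.8% were at an unadjusted p under 0.05 (limma), beside 18.5% of all tested genes. Nubp1, a scaffold of cytosolic cluster assembly, averaged 25.8 ± 3.2 RPKM in Control and 20.2 RPKM in Chd1KD with no overlap of the groups (ratio 0.78, limma, adjusted p = 0.15). The mitochondrial chaperone Hspa9, the glutaredoxin Glrx5 and the targeting factor Ciao2b had ratios of 1.06, 1.11 and 0.89.

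Of 12 genes of heme breakdown and transport, 10 were tested and none passed (limma). With 1 lower, 10.0% were at an unadjusted p under 0.05 (limma), beside 18.5% of all tested genes. Slc46a1, a folate and heme transporter, registered 4.854 and 5.837 RPKM in Control against 3.639 and 4.153 RPKM in Chd1KD (ratio 0.73, limma, adjusted p = 0.15). Hmox1, the inducible heme oxygenase that frees iron from heme, registered 36.06 and 17.61 RPKM in Control against 38.43 and 34.74 RPKM in Chd1KD, so that Control replicate 2 stood apart from the other 3 libraries (limma, adjusted p = 0.37). Blvrb, Slc48a1 and Pgrmc1, the most abundant, each had a ratio of 0.98.

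Of 21 copper genes, 19 were tested and none passed (limma). With 1 higher and 2 lower, 15.8% were at an unadjusted p under 0.05 (limma), beside 18.5% of all tested genes. Cuta, a relative of a bacterial copper tolerance protein, registered 36.59 and 35.47 RPKM in Control against 29.22 and 28.30 RPKM in Chd1KD (ratio 0.80, limma, adjusted p = 0.083). Atp7a, a copper-exporting ATPase, registered 2.452 and 3.445 RPKM in Control against 3.959 and 4.239 RPKM in Chd1KD (ratio 1.39, limma, adjusted p = 0.20). Atp7b, the ATPase that loads copper onto ceruloplasmin in hepatocytes, had a mean of 0.0289 RPKM and was not tested. Sod1, the copper and zinc superoxide dismutase, the copper and phosphate carrier Slc25a3 and the copper chaperone Atox1 had ratios of 0.92, 0.98 and 1.06.

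**Figure D4:**
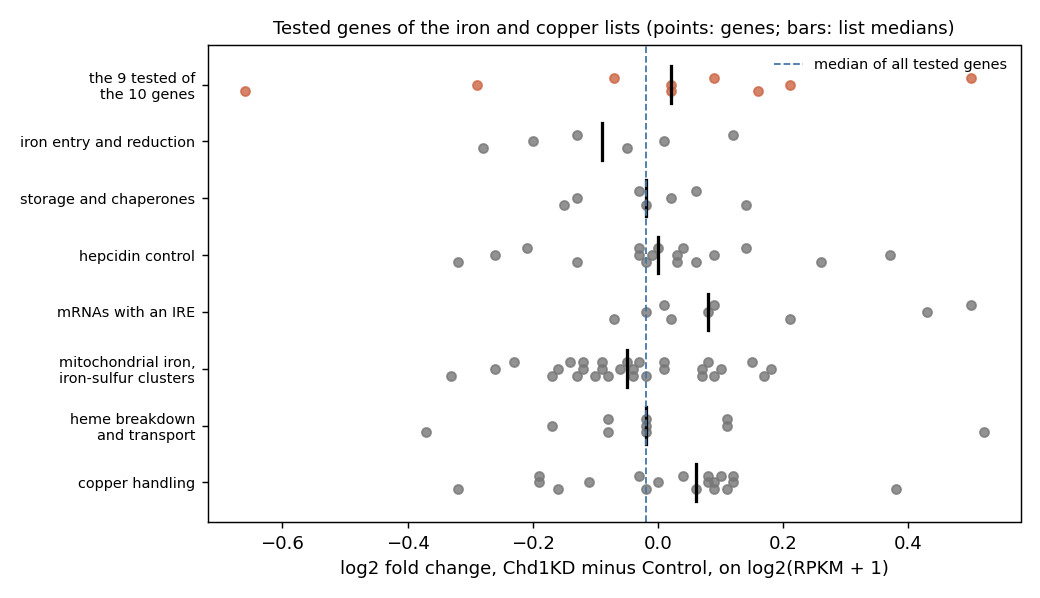
Log2 fold changes (Chd1KD minus Control, on log2(RPKM + 1)) of the tested genes of each list, 1 point per gene, with black bars at list medians and a dashed line at the median of all tested genes (-0.02). Cp at -0.66 is the lowest point drawn, Hmox1 at 0.52 and Slc40a1 at 0.50 are the highest, and the list medians lie between -0.09 and 0.08. The list of mRNAs with an IRE includes 5 of the 10 genes, which are also drawn in their own row. Its median is 0.08 with them and 0.04 without.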

How the data were processed

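The deposited RPKM values cover 30582 RefSeq transcripts, per the file headers. TopHat 1.4.1 and Cufflinks 1.3.0 with the mm10 build are listed in the submitters' processing notes. The annotation release and any use of strand or filters are not stated there. Symbols came from the RefSeq gene table of GRCm38.p6 (29999 rows) or from GENCODE M21 (184), 399 rows kept their accession, and RPKM was summed per gene. RPKM carries no counts: at low values the commonest ratio put every library within 1.01 times the depth of Control replicate 1, but at most 77 of 1688 transcripts carried it, so depth is unknown and no counting interval is given.

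Genes averaging 1 RPKM or more were tested with limma 3.58.1 (R 4.3.3) on log2(RPKM + 1) with a variance trend and Benjamini-Hochberg adjustment over all genes. An adjusted p under 0.05 was a pass. The code was tested on simulated data drawn with the fitted spread, which checks the code and not its power on these libraries. Fold changes understate changes of low genes. Transcript rows were fitted in the same way. The members and lists were chosen with earlier results of these data known. Named genes followed the rule given in the text, and a few that it picked are not reported here. Fbxl5, Ncoa4, Hfe, Tfr2, Atp7b, Cdc42bpa, Cdc14a, Alas2, Apob, Hps3, Glrx3 and genes listed at 0 were named for their role or after their values were seen. Figures were drawn with matplotlib 3.10.9.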

Additional observations from a re-analysis of the deposited data

How the results depend on the processing

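Over all genes, the 47 calls became 71 with a filter at a mean of 5 RPKM, 6 without a variance trend, 92 with a robust trend, 12 when each gene was read from its top transcript and 49 (without Chd1KD replicate 1) to 236 without 1 library. Without a filter 41 genes passed, all with a mean of at most 0.181 RPKM and none of them among the 47, and Chd1 had an adjusted p of 0.25 (limma, log2 fold change -0.96). Of the 10 iron and copper genes, 0 passed in the main test, 1 (Slc40a1, adjusted p = 0.049) with the filter at 5 RPKM, which leaves Cp out, 2 (Slc40a1 and Cp, adjusted p = 0.044 and 0.048) with a robust trend, and 0 to 2 without 1 library. The replicate numbers carry no stated pairing, and deviations of same-numbered libraries correlated at r = 0.22 over 10209 genes. With the replicate block, 325 genes passed, among them 3 of the 10 (Cp, Trf and Slc40a1, adjusted p from 0.037 to 0.039) and 3 of the wider lists (Stat3, Nubp1 and Cuta). Genes of the 10 at an unadjusted p under 0.05 numbered 3 to 5 without 1 library. In the wider lists 0 to 7 genes passed without 1 library, 7 of them without Control replicate 2, and 8 to 27 were at an unadjusted p under 0.05. That count was 10 without a filter. Signs turned for Fth1 under quantile normalization (0.04), Ftl1 without Control replicate 2 (-0.02; its range without 1 library was -0.02 to 0.19), Aco1 without Control replicate 1 (-0.01) and Slc11a2 when read from its top transcript, NM_008732 (-0.08). The cause was not tested. Cp, Trf, Tfrc, Slc40a1 and Ireb2 kept their direction under every alternative that gave a value. The 2 libraries of each group and unknown depth limit the precision.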
